A study of Mus musculus with 8 samples.

Results

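Toll-like receptors, NOD-like receptors and C-type lectin receptors are the sensors with which myeloid cells recognise microbes and damaged cells. The genes described here were chosen by symbol: every probe set with a single gene symbol that begins with Tlr, Nlrp, Nod, Naip or Clec followed by a digit, Clec1b left out. This gave 55 of 18193 genes, 11 Toll-like receptors, 25 C-type lectins, 15 NLRP genes, 3 NAIP genes and Nod1. Where a gene had several probe sets, as 14 did, the brightest on average stood for it. Nod2, Clec12a and Clec9a were not analysed here.

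RNA was measured on 8 Affymetrix arrays, on cells that had been sorted from mouse bone marrow by FACS. The 4 L-GMP arrays (replicates A to D) hold granulocyte-macrophage progenitors (GMPs) sorted from leukaemic mice with the genotype label HoxA9+Meis1 AML, an acute myeloid leukaemia. The 4 GMP arrays (replicates A to D) hold GMPs from mice with the genotype label Normal. How HoxA9 and Meis1 were introduced, the strain and the age of the mice are not given in the sources used here. The labels do not say whether each array comes from its own animal. The p-values therefore measure the spread between these arrays alone, and that spread may be technical. In bulk samples of this kind, fewer cells of a type and less RNA per cell cannot be told apart.

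Toll-like receptors sit on the cell surface or in endosomes and signal through the adaptors MyD88 and TRIF to NF-kB and interferon regulatory factors. NOD1 senses fragments of bacterial cell walls in the cytosol, and NLRP and NAIP proteins can assemble inflammasomes that activate caspase-1. Many myeloid C-type lectins bind sugars or lipids of microbes and signal through adaptors with an activating motif and the kinase SYK, while others inhibit. Granulocyte-macrophage progenitors already carry several of these sensors before they mature into neutrophils and monocytes.

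All values are log2 RMA intensities, and changes are L-GMP minus GMP on that scale, each with its SE, the standard error from the limma fit. A gene passed the threshold at a Benjamini-Hochberg adjusted p under 0.05 over all 18193 genes. Over all probe sets other than controls, the array median was 5.24 to 5.30 in L-GMPs and 5.33 to 5.49 in GMPs. Every L-GMP array thus had a lower median than every GMP array, an offset that centring on the median, given below, removes. The lower quartile was 3.65 to 3.75. L-GMP B stood apart from the other L-GMP arrays on the second principal component (12.6% of the variance) and GMP A from the other GMP arrays on the third (9.71%). The gap between the Gapdh controls at the 3' end and the 5' end, a sign of RNA integrity, was 2.74 on GMP D and 1.24 to 1.76 elsewhere. The labelled genes did not check the groups fully. Hoxa9 rose by 4.82 in one probe set and fell by 6.66 in the other, and Meis1 fell in all 3 of its probe sets, by 1.47 to 3.05. Of 9 markers of granulocyte-macrophage progenitors, all 9 lay above the array median on all 8 arrays, and 4 of them were lower in L-GMPs. Of 9 measured monocyte and macrophage markers, 7 were higher and 1 lower in L-GMPs, and their summed linear intensity was 11349 to 15598 in L-GMPs against 6227 to 6952 in GMPs. Of 8 eosinophil, basophil and mast cell markers 7 were lower (sum 406 to 1006 against 2777 to 8863), as were 3 of 6 megakaryocyte and platelet markers (175 to 244 against 455 to 1958). Of 8 mature neutrophil markers 2 were lower (251 to 1235 against 843 to 4229, with overlap), and 1 of 6 erythroid markers was (129 to 169 against 173 to 376). Markers of dendritic cells (452 to 509 against 439 to 499), B cells (416 to 722 against 435 to 496) and T and NK cells (76 to 86 against 68 to 82) had no member past the threshold. No T and NK cell marker lay above the array median on all 8 arrays. The part of these marker differences in the results below was not tested.

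Among the 55 receptor genes, 6 rose and 5 fell in L-GMPs. The rises were in Tlr1, Tlr13, Clec4e, Clec4d, Naip6 and Nlrp9c, and the falls in Tlr4, Clec2d, Clec5a, Nod1 and Nlrp12. Over all genes 12.1% passed the threshold, 4.78% as higher and 7.27% as lower, against 20% of the receptor genes. Of all genes past the threshold 39.7% were higher, a split that became 70.1% after each array was centred on its median and 49.5% after quantile normalization. The groups did not overlap in 14 receptor genes, 9 higher and 5 lower in L-GMPs, where 18.2% of all genes did not overlap. The 4 of them that missed the threshold were Naip2, Tlr5, Clec2e and Nlrp10. The receptor genes were chosen with earlier results of these data known. Their counts beside the shares of all genes are therefore descriptive only. The median change of the receptor genes was 0.08, beside 0.01 for all genes. The call of Tlr1, Tlr13, Clec4d, Clec4e and Clec2d held under every alternative that gave them a value. The count of falls rested on single arrays: it was 2 without GMP B or GMP D and 3 without L-GMP C or L-GMP D. Leaving out GMP B gave 1411 genes past the threshold in all and leaving out GMP D gave 1425, against 2193. Centring each array on its median moved the median change of all genes from 0.01 to 0.15 and gave 9 rises and 4 falls among the receptor genes, against 7 and 5 after quantile normalization. Over all 18193 genes, 3084 passed after centring, 2161 of them higher, and 2531 after quantile normalization, 1252 of them higher. Without either, 2193 passed, 870 of them higher.

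**Figure D1:**
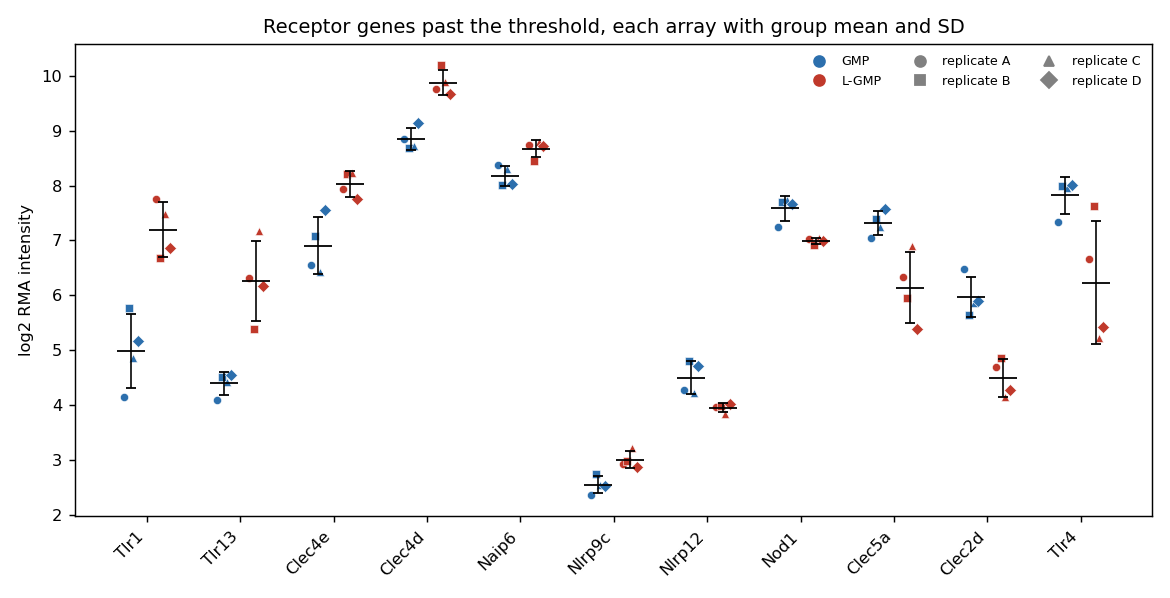
Log2 RMA intensity (vertical axis) of the 11 receptor genes past the threshold, ordered by change, on each of 4 GMP (blue) and 4 L-GMP (red) arrays, with symbols for replicates A to D and bars for the group mean and SD. The groups are apart in all of them except Tlr4, where L-GMP B (7.62) lies among the GMP arrays.

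Of the Toll-like receptors of the cell surface, Tlr1 rose and Tlr4 fell. TLR1 and TLR6 each pair with TLR2 to bind bacterial lipopeptides, and Tlr1 rose while Tlr2 and Tlr6 had changes near 0. Tlr1 was 7.76, 6.69, 7.48 and 6.87 on L-GMP arrays A to D and 4.14, 5.76, 4.86 and 5.16 on GMP arrays A to D. All L-GMP arrays lay above all GMP arrays, and GMP A was the lowest. The group means were 7.20 ± 0.50 and 4.98 ± 0.67 (SD, n = 4 each), a rise of 2.22 for Tlr1 (SE 0.33, 4.65-fold, adjusted p = 0.00154). Tlr2, the shared partner, was 6.64, 6.57, 6.79 and 6.64 in L-GMPs and 6.62, 6.72, 6.62 and 6.87 in GMPs, a change of -0.05 (SE 0.10, adjusted p = 0.812). Tlr6, the neighbour of Tlr1 with no protein-coding gene between them in RefSeq's order, had a change of -0.12 (SE 0.11, adjusted p = 0.545). Tlr5, the flagellin receptor, did not overlap between groups, with a change of -0.30 that missed the threshold (adjusted p = 0.137).

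Tlr4, the receptor of bacterial lipopolysaccharide, fell, but with a wide spread among leukaemic arrays. It was 6.66, 7.62, 5.23 and 5.42 on L-GMP arrays A to D and 7.33, 7.99, 7.95 and 8.02 on GMP arrays A to D. L-GMP B overlapped the GMP arrays, and replicates C and D were the lowest. The fall was 1.59 (SE 0.45, 3.01-fold, adjusted p = 0.0446). The call was lost without L-GMP A, C or D or GMP B, C or D (adjusted p 0.0624 to 0.113) and with a trended robust prior (adjusted p = 0.101). Tlr4 had 4 probe sets, tested here among all probe sets: the second brightest had a change of -0.99 (adjusted p = 0.0921), the third fell by 1.38 (SE 0.29, adjusted p = 0.0111), and the dimmest had a change of 0.09. The mean of the 4 fell by 0.97.

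Of the accessory proteins of TLR4 named here, Ly96 fell, and Cd14 and Lbp did not pass the threshold. Ly96, which encodes the lipopolysaccharide-binding partner of TLR4, was 4.84, 5.06, 5.24 and 5.22 in L-GMPs and 5.95, 5.64, 5.65 and 5.61 in GMPs, all lower in L-GMPs. It fell by 0.62 (SE 0.12, adjusted p = 0.00903). Ly86, whose product forms a homologous complex with CD180, had means of 10.99 ± 0.10 and 9.68 ± 0.13 (SD, n = 4 each), a rise of 1.32 (SE 0.10, 2.49-fold, adjusted p = 1.69e-05). Cd180 itself had a change of 0.75 (adjusted p = 0.103) and Cd14, the co-receptor that hands over lipopolysaccharide, a change of 0.99 (adjusted p = 0.0738). Cd14 was 7.20, 5.98, 6.93 and 6.97 in L-GMPs and 5.36, 5.35, 5.76 and 6.66 in GMPs, with overlap at GMP D. Lbp, the serum carrier of lipopolysaccharide, had a change of -0.10 (adjusted p = 0.749). Of 10 measured accessory proteins 1 rose and 1 fell (20%, beside 12.1% of all genes), with a median change of 0.11. After median centring 4 rose, where 2161 of all 18193 genes were higher. The list was chosen with earlier results of these data known, so its counts are descriptive only. Hsp90b1, the folding chaperone of Toll-like receptors and the brightest of the list, had a change of -0.14 (adjusted p = 0.438). Cd14, Cd180 and Lbp are named here for their known part in the receptor complex. Pglyrp1, named after its values were seen, had the largest change of the list, -1.57, without overlap, and missed the threshold (adjusted p = 0.057).

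**Figure D2:**
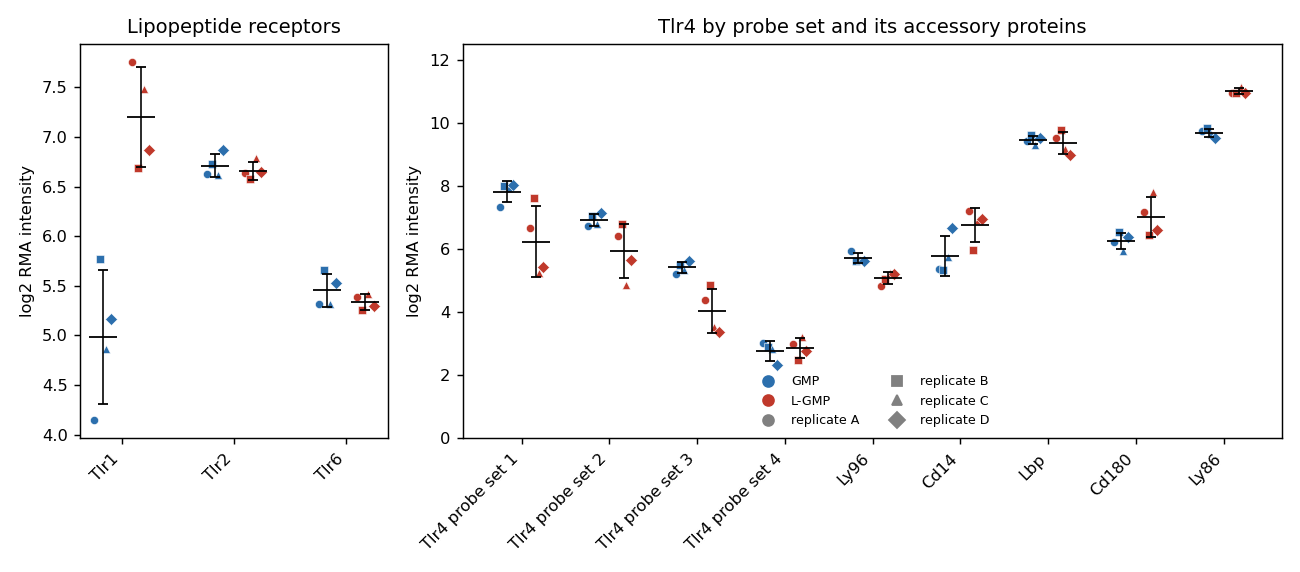
Log2 RMA intensity (vertical axes) on each GMP (blue) and L-GMP (red) array with group mean and SD, for the lipopeptide receptors (left) and for Tlr4 by probe set, from bright to dim in GMPs, with its accessory proteins (right). Tlr1 is separated between groups and Tlr2 and Tlr6 overlap, while Ly96 is lower and Ly86 higher on every L-GMP array.

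Of the endosomal receptors, Tlr13 rose. TLR13, which mice have and humans lack, recognises bacterial ribosomal RNA. Tlr13 was 6.31, 5.38, 7.17 and 6.17 on L-GMP arrays A to D and 4.09, 4.51, 4.43 and 4.55 on GMP arrays A to D. The groups did not overlap, and L-GMP B was the lowest of its group. It rose by 1.86 (SE 0.30, 3.64-fold, adjusted p = 0.00259). Tlr9, the sensor of unmethylated DNA, had a change of 0.06 (adjusted p = 0.787), and Tlr7, a sensor of single-stranded RNA, of 0.00 (adjusted p = 0.994). Tlr3, the sensor of double-stranded RNA, had a change of -0.38 (adjusted p = 0.0956) but lay below the lower quartile on 7 of 8 arrays. Its dimmer probe set, below the lower quartile on all 8, had a change of 0.07. Tlr8 was below the lower quartile on all 8 arrays, and Tlr12 had a change of -0.12. Unc93b1, the carrier that brings these receptors to endosomes, had a change of 0.30 (adjusted p = 0.243), a value given for its role.

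The C-type lectins Clec4d and Clec4e both rose. Their products, MCL and Mincle, are paired receptors of mycobacterial glycolipid that signal through the Fc receptor gamma chain, and the genes are adjacent, with no protein-coding gene between them in RefSeq's order. Clec4d was the brightest of all 55 receptor genes, at 9.76, 10.19, 9.89 and 9.66 in L-GMPs and 8.86, 8.69, 8.73 and 9.14 in GMPs. All L-GMP arrays were above all GMP arrays. Clec4d rose by 1.02 (SE 0.14, 2.03-fold, adjusted p = 0.00107), measured by a probe set of a kind that can match more than a single transcript. Clec4e was 7.93, 8.21, 8.23 and 7.75 in L-GMPs and 6.55, 7.08, 6.42 and 7.56 in GMPs, with GMP D closest to the L-GMP arrays. It rose by 1.13 (SE 0.23, 2.19-fold, adjusted p = 0.0102), and its dimmer probe set rose by 0.87 (adjusted p = 0.0352 among all probe sets). Clec4n, the gene next to Clec4d and the one for Dectin-2, was below the lower quartile on all 8 arrays and had a change of -0.08 (adjusted p = 0.818).

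Promoter windows are shown for the adjacent pair, for Tlr1 and Tlr13, which had the largest rises, and for Clec5a, which fell. They were chosen after their motif matches were seen, and are the 5 of 10 genes past the threshold with a window that hold the ETS core. They run from 250 bases before to 50 after the transcript start, 5' to 3', from RefSeq on GRCm38.p6. The windows are chr6:123261857-123262156 (plus strand) for Clec4d, chr6:123289822-123290121 (minus strand) for Clec4e, chr5:64933509-64933808 (minus strand) for the first of the Tlr1 windows, chrX:106143025-106143324 (plus strand) for Tlr13 and chr6:40585756-40586055 (minus strand) for Clec5a. Capitals mark every match, on either strand, to 5 motifs: the ETS core GAGGAA bound by PU.1, the C/EBP motif TTGCNNAA, the AP-1 motif TGANTCA, the MEIS motif TGACAG and the NF-kB consensus.
Clec4d: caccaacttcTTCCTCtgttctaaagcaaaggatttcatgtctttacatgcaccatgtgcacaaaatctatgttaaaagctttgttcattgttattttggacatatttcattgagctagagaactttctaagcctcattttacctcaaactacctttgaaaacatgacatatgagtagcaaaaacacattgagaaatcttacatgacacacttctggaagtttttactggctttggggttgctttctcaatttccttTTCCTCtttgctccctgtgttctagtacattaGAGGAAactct
Clec4e: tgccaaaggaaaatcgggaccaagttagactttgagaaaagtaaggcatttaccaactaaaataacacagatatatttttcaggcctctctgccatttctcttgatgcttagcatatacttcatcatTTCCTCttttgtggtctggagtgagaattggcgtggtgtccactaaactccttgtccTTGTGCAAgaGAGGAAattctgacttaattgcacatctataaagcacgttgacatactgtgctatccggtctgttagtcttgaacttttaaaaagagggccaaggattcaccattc
Tlr1: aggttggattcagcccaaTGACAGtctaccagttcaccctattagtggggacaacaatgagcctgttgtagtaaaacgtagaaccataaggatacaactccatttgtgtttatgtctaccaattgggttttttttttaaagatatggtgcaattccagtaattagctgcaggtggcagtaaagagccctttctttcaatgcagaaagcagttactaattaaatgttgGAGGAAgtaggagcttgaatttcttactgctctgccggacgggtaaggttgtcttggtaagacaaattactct
Tlr13: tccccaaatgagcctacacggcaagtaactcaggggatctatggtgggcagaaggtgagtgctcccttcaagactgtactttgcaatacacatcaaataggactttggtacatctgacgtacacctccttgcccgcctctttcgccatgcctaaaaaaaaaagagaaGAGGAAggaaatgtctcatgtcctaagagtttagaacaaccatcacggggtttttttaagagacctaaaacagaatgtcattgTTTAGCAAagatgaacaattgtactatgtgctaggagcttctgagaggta
Clec5a: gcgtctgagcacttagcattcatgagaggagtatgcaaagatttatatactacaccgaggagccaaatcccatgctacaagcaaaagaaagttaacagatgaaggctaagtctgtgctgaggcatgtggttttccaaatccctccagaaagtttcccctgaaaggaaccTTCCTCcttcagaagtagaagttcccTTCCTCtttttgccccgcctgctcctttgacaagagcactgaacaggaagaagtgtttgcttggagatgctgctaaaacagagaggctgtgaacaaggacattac

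The ETS core, which chose these windows, had 3 matches in Clec4d, 2 in Clec4e, 1 in Tlr1, 1 in Tlr13 and 2 in Clec5a, so it stood in genes that rose and in a gene that fell. The other Tlr1 window held no match to any of the 5 motifs. Over all 32851 windows of 300 bases, 28.3% held the ETS core, 10.8% the C/EBP motif, 7.81% the AP-1 motif, 19.2% the MEIS motif and 4.51% the NF-kB consensus. Clec4e and Tlr13 each held 1 C/EBP match and the shown Tlr1 window 1 MEIS match. Windows were found for 46 of the 55 receptor genes. The ETS core was in 5 of 10 genes past the threshold and in 13 of 36 others that had a window. A gene counted if any of its windows held the core, whereas the 28.3% is a share of windows, so the 2 are not alike. A match describes the letters of the window and does not show that a factor binds there.

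Clec5a, an activating lectin of myeloid cells that couples to the adaptor DAP12, fell. It was 6.33, 5.94, 6.90 and 5.38 on L-GMP arrays A to D and 7.05, 7.38, 7.24 and 7.58 on GMP arrays A to D, with no overlap. The fall was 1.17 (SE 0.27, 2.26-fold, adjusted p = 0.0182). The call was lost without GMP B (adjusted p = 0.0536) and without GMP D (adjusted p = 0.0612). Clec2d, whose product is a ligand of inhibitory receptors on NK cells, was 4.70, 4.85, 4.14 and 4.28 in L-GMPs and 6.48, 5.64, 5.85 and 5.90 in GMPs. Every L-GMP array was below every GMP array, and Clec2d fell by 1.47 (SE 0.20, 2.78-fold, adjusted p = 0.000999). Of the other measured Clec2 genes, Clec2i had a change of 0.21 (adjusted p = 0.448) and Clec2e, which did not overlap between groups, a change of 0.46 (adjusted p = 0.126). A dimmer Clec2i probe set, below the lower quartile on all 8 arrays, fell by 0.43 (adjusted p = 0.0445 among all probe sets).

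Among adaptors of activating lectins, Fcer1g, Tyrobp and Hcst rose. Of 13 measured genes of C-type lectin receptor signalling, 4 rose and 0 fell, where 4.78% of all genes were higher, with a median change of 0.10 beside 0.01 for all genes. The list was chosen with earlier results of these data known, so its count is descriptive only. Fcer1g, the gamma chain that Clec4d and Clec4e products use, was 10.12, 9.79, 10.40 and 10.15 in L-GMPs and 9.05, 9.01, 8.76 and 8.77 in GMPs. It rose by 1.21 (SE 0.14, 2.32-fold, adjusted p = 0.000263). Tyrobp, which encodes DAP12, rose by 0.78 (SE 0.14, adjusted p = 0.00401), so the partner of Clec5a rose where Clec5a fell. Hcst, the adaptor DAP10, rose by 0.55 (adjusted p = 0.0223), a call lost without GMP B, C or D (adjusted p 0.0507 to 0.07). Prkcd, the protein kinase C isoform upstream of CARD9, rose by 0.59 (SE 0.11, adjusted p = 0.00624). Syk, named for its role as their shared kinase, had a change of -0.13 (adjusted p = 0.493). These adaptors serve many receptors of monocytes and macrophages. Of 9 measured markers of those cells, 7 were higher and 1 lower in L-GMPs, as given above. The part of this difference in the rises of the adaptors was not tested.

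**Figure D3:**
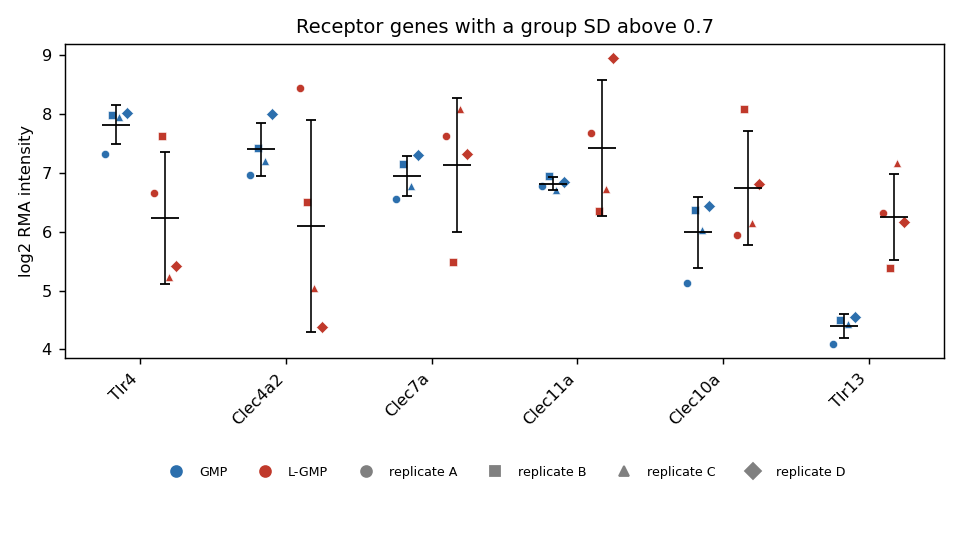
Log2 RMA intensity (vertical axis) of the 6 receptor genes with an SD above 0.7 in either group, on each GMP (blue) and L-GMP (red) array with group mean and SD. The wide spread is on the L-GMP side, and a different L-GMP array is the highest for different genes.

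Several C-type lectins differed more among the leukaemic arrays than between the groups. In 6 receptor genes a group SD was above 0.7, in each of them that of L-GMPs. How many of all genes had a group SD above 0.7 was not counted. Of the 14 receptor genes above the median on all arrays, 9 (64.3%) had the higher SD in L-GMPs, with median SDs of 0.26 in L-GMPs and 0.19 in GMPs. Among all genes above the median on all arrays, 55.7% had the higher SD in L-GMPs, with median SDs of 0.17 in L-GMPs and 0.16 in GMPs. Clec4a2, of the inhibitory DCIR family, was 8.45, 6.51, 5.04 and 4.38 on L-GMP arrays A to D against 6.96, 7.43, 7.21 and 8.01 on GMP arrays A to D. Replicate A was above every GMP array and replicates B, C and D were below them. Its change of -1.30 (SE 0.71) did not pass (adjusted p = 0.278), and without L-GMP A it was -2.09 (adjusted p = 0.0168). Clec4a2 had a second, dimmer probe set with a change of 0.07. Clec7a, the beta-glucan receptor Dectin-1, was 7.63, 5.49, 8.09 and 7.31 in L-GMPs and 6.55, 7.14, 6.77 and 7.30 in GMPs. L-GMP B was the lowest of all, and the change was 0.19 (adjusted p = 0.839). Clec11a, a secreted growth factor of the family, was 7.68, 6.35, 6.73 and 8.95 in L-GMPs against 6.70 to 6.95 in GMPs, a change of 0.61 (adjusted p = 0.433). Clec10a, a galactose-binding lectin of macrophages, was highest in L-GMP B (8.08) and lowest in GMP A (5.13), with a change of 0.76 (adjusted p = 0.309). Clec16a, an autophagy regulator, had a change of 0.11 (adjusted p = 0.776). The arrays that were high for Tlr4 (replicates A and B) were also those that were high for Clec4a2, whereas Tlr13 and Clec7a were highest in replicate C and lowest in replicate B.

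Nod1 fell slightly but evenly. It was 7.03, 6.92, 7.04 and 6.98 on L-GMP arrays A to D and 7.25, 7.69, 7.73 and 7.66 on GMP arrays A to D. All L-GMP arrays were below all GMP arrays, and the L-GMP arrays differed by little (SD 0.06). The fall was 0.59 (SE 0.12, 1.51-fold, adjusted p = 0.0101), and no single array left out ended the call.

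The 3 NAIP genes, which encode the ligand-binding subunits of the NLRC4 inflammasome, had changes of 0.47 to 0.51. NAIP5 and NAIP6 bind flagellin and NAIP2 binds a rod protein of bacterial secretion systems. Naip6 was 8.74, 8.44, 8.80 and 8.71 in L-GMPs and 8.38, 8.01, 8.29 and 8.03 in GMPs, without overlap. It rose by 0.49 (SE 0.12, 1.41-fold, adjusted p = 0.0272), a call that ended when L-GMP A, C or D, or GMP B or D, was dropped (adjusted p 0.0581 to 0.0865). Naip2 had a change of 0.47 (SE 0.14) with groups that did not overlap and just missed the threshold (adjusted p = 0.0516). Naip5 had a change of 0.51 (SE 0.19, adjusted p = 0.106), with GMP D (6.36) above L-GMP B (6.22). The 3 genes are adjacent near-copies, so their probe sets may share signal and the values are not independent. Naip2 passed under 7 of 18 alternatives, among them median centring (adjusted p = 0.0132) and the removal of L-GMP D (adjusted p = 0.031). Naip5 passed under 3, median centring (adjusted p = 0.0299), quantile normalization (adjusted p = 0.0446) and the joint removal of L-GMP B and GMP D (adjusted p = 0.0442).

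Of 15 NLRP genes, 0 lay above the array median on all 8 arrays and 5 lay below the lower quartile on all 8. The 2 that passed the threshold are 13.3% of them, near the 12.1% of all genes. Many of them, such as Nlrp5, Nlrp14 and the Nlrp4 and Nlrp9 genes, are known from oocytes and germ cells. Nlrp3, the inflammasome sensor of macrophages, was 6.02, 4.94, 6.40 and 5.76 on L-GMP arrays A to D and 4.13, 5.10, 5.34 and 5.27 on GMP arrays A to D. L-GMP B overlapped the GMP arrays, the change of 0.82 (SE 0.33) did not pass (adjusted p = 0.14), and without L-GMP B it was 1.10 (adjusted p = 0.0284). Nlrp12, an attenuator of NF-kB in myeloid cells, was 3.97, 3.98, 3.84 and 4.03 in L-GMPs and 4.27, 4.80, 4.22 and 4.71 in GMPs. It fell by 0.55 (SE 0.14, adjusted p = 0.0331) at low levels. That call was lost without any one array other than GMP A and GMP C (adjusted p 0.0509 to 0.0974) and after median centring (adjusted p = 0.0588). Nlrp9c rose by 0.45 (SE 0.12, adjusted p = 0.0318) from a GMP mean of 2.55. It stayed below the lower quartile on all 8 arrays, so the size is uncertain, and its second probe set had a change of 0.13. The Nlrp9c call was lost without L-GMP A, B or C or GMP A, C or D (adjusted p 0.0509 to 0.0816), in the mean of its probe sets (adjusted p = 0.0811) and with the replicate letter as a block (adjusted p = 0.0554).

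**Figure D4:**
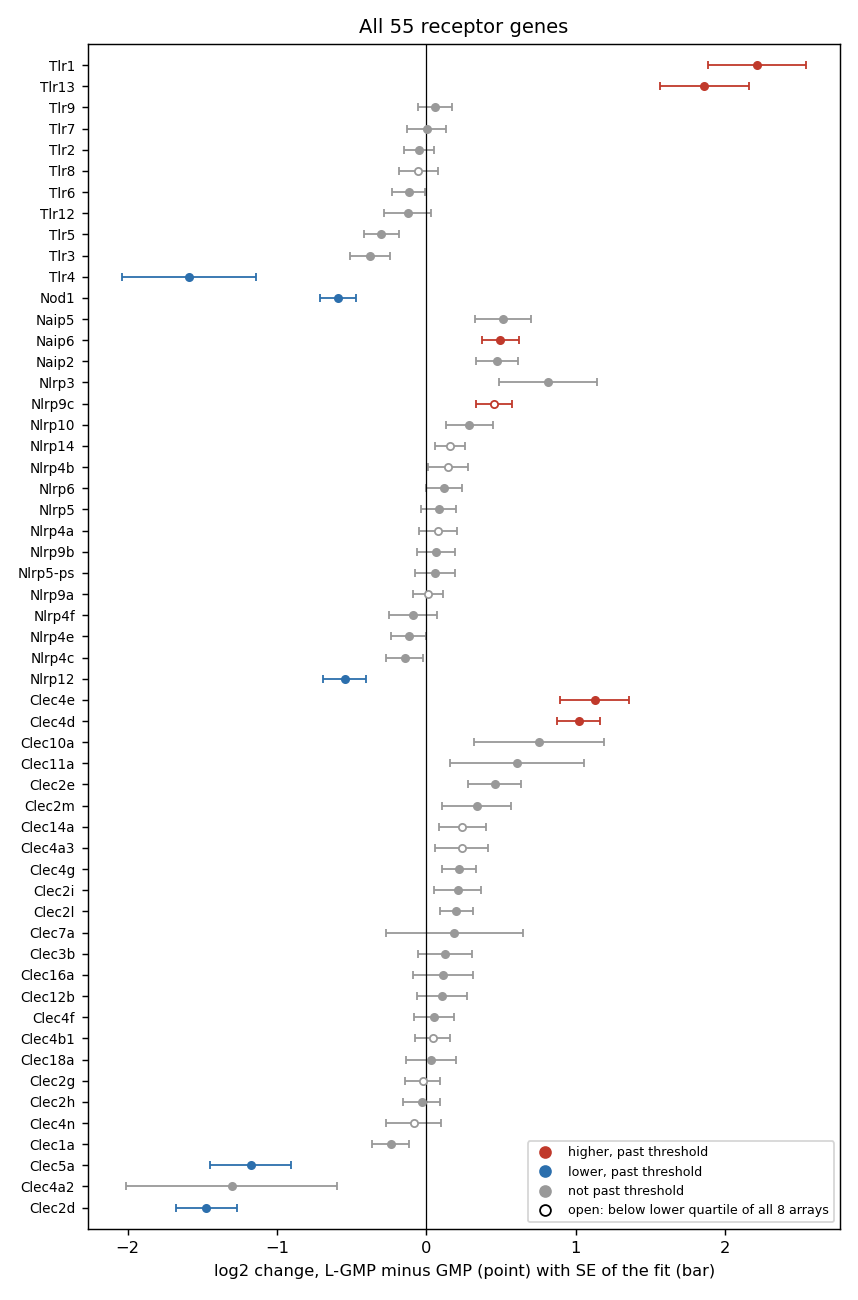
Change in log2 RMA intensity, L-GMP minus GMP (horizontal axis), of all 55 receptor genes by family, with bars for the SE of the fit, red for higher and blue for lower past the threshold, grey for the others and open symbols for genes below the lower quartile on all 8 arrays. Of the 44 genes not past the threshold, 39 lie within 0.5 of 0.

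Most of the remaining receptor genes had small changes. Of the 44 that did not pass, changes ran from -1.30 (Clec4a2) to 0.82 (Nlrp3), and 39 were under 0.5 in size. Among the 55 genes, 11 were below the lower quartile on all 8 arrays, among them Tlr8, Clec4n and Clec4b1.

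Of 120 measured partner genes of the receptors, in 8 lists, 16 rose and 9 fell, beside 4.78% higher and 7.27% lower among all genes, with a median change of 0.08. All 8 lists were chosen with earlier results of these data known. Their counts beside the shares of all genes, here and below, are therefore descriptive only. Of 20 measured adaptors, kinases and transcription factors downstream of the Toll-like receptors, 10% passed the threshold, near the 12.1% of all genes: 1 rose and 1 fell, with a median change of 0.02 and 0 falls after either other scaling. Myd88, named as the adaptor that most of the receptors share, had a change of 0.03 (adjusted p = 0.924). Ticam1, which encodes the adaptor TRIF of TLR3 and TLR4, fell by 0.51 (SE 0.12, adjusted p = 0.0195). The Ticam1 call was lost without L-GMP A or C or GMP C or D (adjusted p 0.0509 to 0.0564), after median centring (adjusted p = 0.0741) and after quantile normalization (adjusted p = 0.0631). Pik3ap1, an adaptor between Toll-like receptors and phosphoinositide 3-kinase, rose by 0.67 (SE 0.14, adjusted p = 0.0124), but the mean of its probe sets had a change of 0.36 (adjusted p = 0.0892). Tab2, the brightest of the list, had a change of 0.24 (adjusted p = 0.24). Of 11 measured inhibitors of the pathway, only Nfkbia rose and 0 fell. Nfkbia, the NF-kB inhibitor that NF-kB itself induces and the brightest of its list, was 10.31, 10.12, 10.93 and 10.95 in L-GMPs and 9.67, 9.30, 9.11 and 9.65 in GMPs, a rise of 1.14 (SE 0.21, 2.21-fold, adjusted p = 0.00549).

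Inflammasome and NOD partners were higher in L-GMPs in 6 of 19 measured genes and lower in 0, with a median change of 0.16, where 4.78% of all genes were higher. The calls of 3 of the 6 (Pycard, Gsdmd and Aim2) were lost when most single arrays were left out. Nlrc5, the activator of MHC class I genes, rose by 1.31 (SE 0.18, 2.47-fold, adjusted p = 0.000931). Mefv, which encodes pyrin, rose by 0.63 (SE 0.11, adjusted p = 0.00427) and Birc3, a ubiquitin ligase of NOD signalling, by 0.51 (SE 0.11, adjusted p = 0.0121). Pycard, the inflammasome adaptor ASC and the brightest of the list, rose by 0.56 (adjusted p = 0.0401), a call lost in the mean of its probe sets, after quantile normalization and without any single array other than L-GMP D (adjusted p 0.0511 to 0.221). Gsdmd, the pore-forming gasdermin, rose by 0.44 (adjusted p = 0.0411), a call lost after quantile normalization, with the replicate block and without any single array other than L-GMP D (adjusted p 0.0559 to 0.111). Aim2, a sensor of cytosolic DNA, rose by 0.40 (adjusted p = 0.0342), a call lost with the replicate block and without any single array other than L-GMP B and GMP A (adjusted p 0.0621 to 0.0931). Casp1 and Il1b, the protease and its main substrate, are given for their role: they had changes of -0.23 (adjusted p = 0.28) and -0.14 (adjusted p = 0.584).

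Of 8 measured cytosolic sensors of nucleic acid, 4 fell and 0 rose, with a median change of -0.50, where 7.27% of all genes were lower. The other 4 (Dhx58, Ifi203, Zbp1 and Mavs) did not pass, with changes from -0.46 to 0.21. Ddx58, which encodes the RNA sensor RIG-I, was 4.23, 4.42, 4.68 and 4.13 in L-GMPs and 5.30, 6.37, 5.80 and 6.09 in GMPs, a fall of 1.52 (SE 0.21, adjusted p = 0.00103). Under the alternatives the change of Ddx58 ran from -1.72 to -0.87, and its call held in each that gave it a value. Ifih1, the RNA sensor MDA5, fell by 1.17 (SE 0.16, adjusted p = 0.00105). Eif2ak2, the kinase PKR and the brightest of the list, fell by 0.54 (adjusted p = 0.011). Ifi204 fell by 0.55 (adjusted p = 0.0287) below the lower quartile on all 8 arrays, and its call was lost after median centring and without L-GMP A, C or D or GMP B or D (adjusted p 0.052 to 0.0808).

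Of 20 measured inflammatory target genes of the receptors, 2 rose and 1 fell, a share of 15% that lies near the 12.1% of all genes. Their median change was 0.23. After median centring or quantile normalization 6 rose, where 2161 and 1252 of all 18193 genes were higher. Ccl3, a macrophage chemokine and the brightest of the list, rose by 1.90 (SE 0.46, 3.74-fold, adjusted p = 0.0224). It overlapped between groups, at 9.90, 8.28, 10.30 and 10.11 in L-GMPs and 7.71, 7.17, 7.28 and 8.81 in GMPs, and lost its call without L-GMP A, C or D or GMP B or C and with a trended robust prior (adjusted p 0.0549 to 0.0715). Il12a, a subunit of interleukin-12, rose by 0.96 (adjusted p = 0.0203), a call lost without L-GMP C or GMP B or D (adjusted p 0.0558 to 0.063). Il6 fell by 1.05 (SE 0.18, adjusted p = 0.00424) but lay below the lower quartile on all 8 arrays, so the size of its change is uncertain. Tnf (0.81, adjusted p = 0.0894) and Cxcl2 (1.90, adjusted p = 0.0537), singled out after their values were seen, did not pass. Both overlapped between groups, and Cxcl2 lay below the lower quartile on 4 of 8 arrays, so the size of its change is uncertain.

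Of 21 other C-type lectins and pattern receptors outside the symbol rule, 1 rose and 2 fell, a share of 14.3% that lies near the 12.1% of all genes. After median centring 5 rose, where 2161 of all 18193 genes were higher. Colec12, a collectin scavenger receptor, rose by 4.05 (SE 0.50, adjusted p = 0.000432) from 2.36 ± 0.13 (SD, n = 4), below the lower quartile, so its size is uncertain. Fcnb, a ficolin of granulocytes, fell by 2.32 (SE 0.39, adjusted p = 0.00323), and Ly75, the endocytic lectin DEC-205, fell by 1.91 (SE 0.26, adjusted p = 0.001) to below the lower quartile on all 4 L-GMP arrays, so the size of its fall is uncertain too. Cd69, the brightest of the list, had a change of 0.33 (adjusted p = 0.544).

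**Figure D5:**
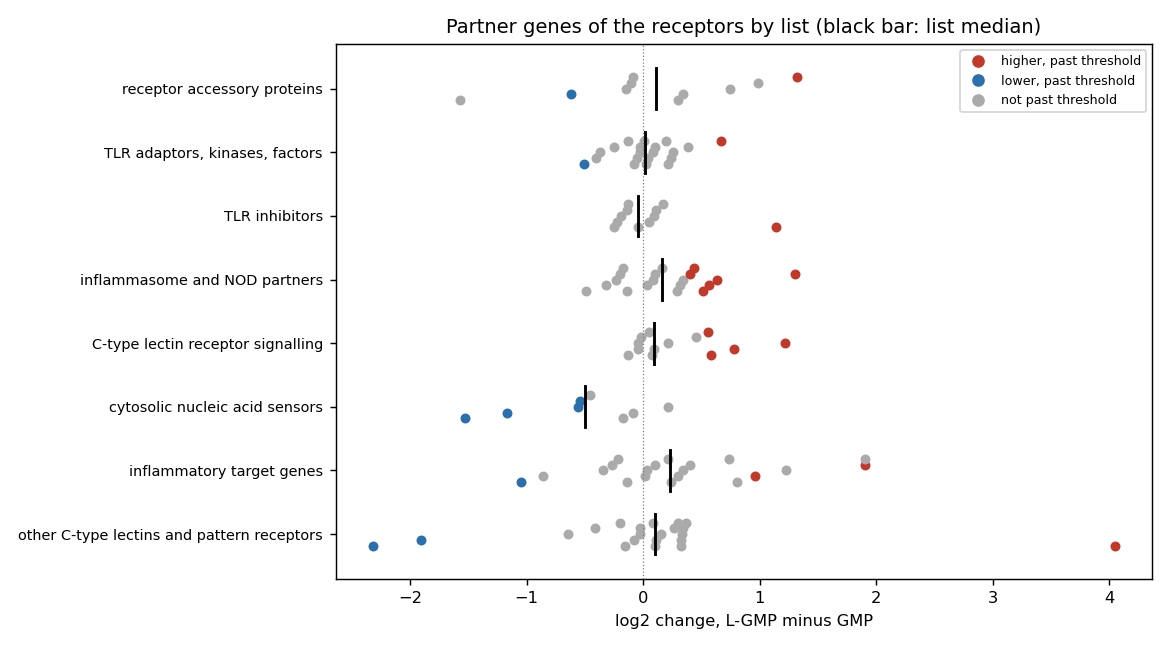
Change in log2 RMA intensity, L-GMP minus GMP (horizontal axis), of the partner genes in 8 lists (vertical axis), with red for higher and blue for lower past the threshold and a black bar for the list median. The inflammasome and lectin signalling lists hold 6 and 4 rises and no fall, and the cytosolic sensor list 4 falls and no rise. All lists were chosen with earlier results of these data known.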

How the data were processed

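The deposited series matrix gives 1 value per probe set and array, 45101 probe sets on 8 arrays. Per the submitters' processing notes these are RMA values (background correction, normalization between arrays and summary of probes), version not given in the sources used here. As deposited they span 3.54 to 29747, so they are linear intensities, and log2 was taken of them. Having 4 arrays a group limits the precision. The labelling kit in the labels makes sense-strand targets of whole transcripts, and which strand the probe sets read was not settled. After 64 control probe sets were left out, 34945 had 1 gene symbol in the platform annotation, 932 several and 9160 none. The 55 receptor genes matched RefSeq by Entrez identifier with 0 symbols changed.

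Groups came from the sample titles. The test of L-GMP against GMP was that of limma (3.58.1, run in R 4.3.3): a 2-sided moderated test from lmFit and eBayes, group being the only term, with Benjamini-Hochberg over all 18193 genes at 0.05. The replicate letters were not used as pairs in this test, and whether same-lettered arrays were handled together was not settled.

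The members and lists were chosen with earlier results of these data known. The text names every receptor gene past the threshold, those without overlap and a change of at least 1, those with a mean above the median of all genes, a fixed set of well-known receptors, up to 5 others, and of each partner list up to 6 changed genes and the brightest. Other genes named were chosen for their role or after their values were seen. Alternatives were median centring, quantile normalization, filters on the dimmest 25% and 50% of genes, the mean of probe sets, every probe set, a trended robust prior, array weights, a replicate block and each array left out. The joint removal of L-GMP B and GMP D was an addition made after seeing the data. Of 138 partner genes listed, 120 were measured.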

Additional observations from a re-analysis of the deposited data

Results flagged for a closer look

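An array lay far from the other 3 of its group in 8 of 104 groups of 4 examined, where chance gives about 5%. Clec16a was 6.98 on L-GMP B, against 6.04 to 6.06 on the other L-GMP arrays. GMP A stood apart for 3 genes: Nod1 was 7.25 against 7.66 to 7.73 on the other GMP arrays, Tlr4 was 7.33 against 7.95 to 8.02, and Ly96 was 5.95 against 5.61 to 5.65. GMP D stood apart for another 3: Birc3 was 8.52 against 8.33 to 8.37, Tyrobp was 11.03 against 11.36 to 11.42, and Colec12 was 2.17 against 2.40 to 2.43. Ly86 was 11.14 on L-GMP C, against 10.94 to 10.95.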

How the results depend on the processing

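Of 36 named genes past the threshold, all kept their direction in the 634 values that the alternatives gave, and 544 of these passed the threshold. The dim filters, every probe set, the trended robust prior and the replicate block leave each change as it is. They could not alter a direction, and the 36 genes were chosen for passing on these same arrays. The kept direction is therefore descriptive only. With an array left out, receptor genes numbered 4 to 6 as higher and 2 to 5 as lower, partner genes 18 to 28 in all, and all genes 1411 to 2388. With the dimmest 50% of genes removed 3 receptor genes were lower, a filter that removes members themselves. With L-GMP B and GMP D both left out 2 were lower, Nod1 lost its call (adjusted p = 0.0617) and Clec7a passed (0.86, adjusted p = 0.0463). The replicate block gave 5 higher and 5 lower receptor genes and 1760 genes in all; same-lettered arrays correlated at -0.07 to 0.11 in their deviations from the group means, and only the letter D was its own best match. Array weights gave 3068 genes and median centring 3084, and partner genes numbered 37 after centring against 25. Of 288 recomputed list counts, 240 stayed within 1.5 times. Signal near the floor limits what can be said of the dim members.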
